A study of Homo sapiens with 4 samples.

Results

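In MIA PaCa-2 cells, an established line of human pancreatic ductal adenocarcinoma, 2197 of the 9552 c-MYC peaks called under DMSO were intergenic by the rule below and were called under neither drug. These 2197 peaks were chosen by their absence from the 2 drug peak lists. Each lay on chromosomes 1 to 22 or X, had its summit more than 1 kb from the start (TSS, transcription start site) of every protein-coding or lncRNA transcript in GENCODE version 44, stood outside every protein-coding gene, and overlapped no c-MYC peak called under AMG510 or trametinib by even 1 bp. They are called absent intergenic peaks here. The 177 DMSO intergenic peaks that overlapped a drug peak are called kept. Since the drug lists made the choice, the loss itself and the strength of the peaks under DMSO are descriptions, whereas DNA sequence, position in the genome and the IgG list were not used to choose them, beyond the distances to TSS and genes. Overlap with the IgG list is still tied to the choice, since a place called in every library is kept by the rule.

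Chromatin immunoprecipitation followed by sequencing (ChIP-seq) pulls down DNA fragments with an antibody and calls a peak where sequenced tags pile up above the local background. Cells received the solvent DMSO, the inhibitor AMG510 at 100 nM or the MEK inhibitor trametinib at 10 nM for 8 h. A c-MYC antibody was used on 1 library for each treatment, and non-specific immunoglobulin (IgG) on 1 further library of DMSO-treated cells. There were no replicates, so every difference is between single libraries and no test was made. Estimated depth in peak calling was 22700000 to 24800000 tags per library. Intervals are 95% Wilson intervals of shares and Newcombe intervals of differences, which cover counting error only and not the spread between cultures.

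c-MYC is a basic helix-loop-helix transcription factor that binds DNA as a dimer with MAX, preferring the E-box CACGTG. It is best known at the promoters of genes for growth, ribosome and nucleotide production, and at high levels it also occupies enhancers and sites without an E-box. MEK activates the ERK kinases, which among other things stabilize the c-MYC protein. Intergenic peaks can mark enhancers, promoters of unannotated or small RNA transcripts, or background of the assay, and a peak list by itself does not tell these apart.

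The sequences around the summits show the range within the set. The absent peaks near PLEK, EFCAB2, ZNF195 and PMEPA1 were 4 of the 5 strongest with an E-box, and each is shown for 81 bases of the GRCh38 plus strand centred on the summit, with the E-box CACGTG and its noncanonical form CACGCG (read on either strand) in capitals. Peaks are named by the nearest protein-coding gene, which is a label and not an assignment.

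PLEK, chr2:68362190-68362270: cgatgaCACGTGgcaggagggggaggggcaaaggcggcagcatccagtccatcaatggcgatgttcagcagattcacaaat
EFCAB2, chr1:244918918-244918998: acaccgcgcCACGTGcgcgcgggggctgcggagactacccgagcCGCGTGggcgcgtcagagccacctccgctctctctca
ZNF195, chr11:3422249-3422329: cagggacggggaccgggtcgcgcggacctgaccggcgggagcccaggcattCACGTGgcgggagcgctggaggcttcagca
PMEPA1, chr20:57718700-57718780: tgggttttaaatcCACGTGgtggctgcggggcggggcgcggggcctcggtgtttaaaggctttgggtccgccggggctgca

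Only 3 absent peaks held more than a single E-box within 100 bp of the summit, and all are shown next. The one near FGD2 had 3 copies, and those near CCNE1, the gene of cyclin E1, and LBHD2 had 2 each, the second copy of LBHD2 lying outside the stretch shown.

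FGD2, chr6:37051491-37051571: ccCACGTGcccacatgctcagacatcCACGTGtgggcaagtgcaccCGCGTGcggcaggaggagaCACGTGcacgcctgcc
CCNE1, chr19:29844431-29844511: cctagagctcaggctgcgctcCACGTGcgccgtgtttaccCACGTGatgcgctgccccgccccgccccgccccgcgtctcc
LBHD2, chr14:103091270-103091350: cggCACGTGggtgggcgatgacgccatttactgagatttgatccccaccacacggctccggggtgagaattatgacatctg

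For contrast, the first that follows is the absent peak of largest fold enrichment, near SLC46A3, which has no E-box. The last pair are kept peaks near NKAIN1 and TCF3, with 1 and 2 E-boxes.

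SLC46A3, chr13:28753700-28753780: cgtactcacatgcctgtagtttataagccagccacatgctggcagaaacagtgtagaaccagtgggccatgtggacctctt
NKAIN1, chr1:31155432-31155512: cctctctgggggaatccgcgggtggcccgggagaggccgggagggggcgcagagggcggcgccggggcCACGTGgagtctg
TCF3, chr19:1672487-1672567: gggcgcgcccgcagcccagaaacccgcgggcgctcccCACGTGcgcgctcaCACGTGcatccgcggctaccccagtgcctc

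Of the 2374 DMSO intergenic peaks, 92.5% (2197, interval 91.4 to 93.5) had no overlapping drug peak, against 73.3% of all DMSO peaks. The drug lists define the set, so nothing is read from this share. It was 95.1% (1950 of 2050) for peaks inside protein-coding genes and 56.7% (2803 of 4945) for peaks within 1 kb of a TSS. Of the 177 kept peaks, 59 overlapped a peak of AMG510 alone, 38 of trametinib alone and 80 of both. Fold enrichment is the ratio of tags to background at the summit, with 1 added to each. The share without a drug peak fell with this ratio, from 97.9% (706 of 721) up to 4 to 15.5% (9 of 58) above 7. Of the 49 kept peaks above 7, 29 overlapped an IgG peak, and among DMSO intergenic peaks without one 31.0% (9 of 29, interval 17.3 to 49.2) above 7 and 98.6% (706 of 716) up to 4 were absent. The share of absent peaks was thus lowest among the strongest peaks with or without those places.

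**Figure D1:**
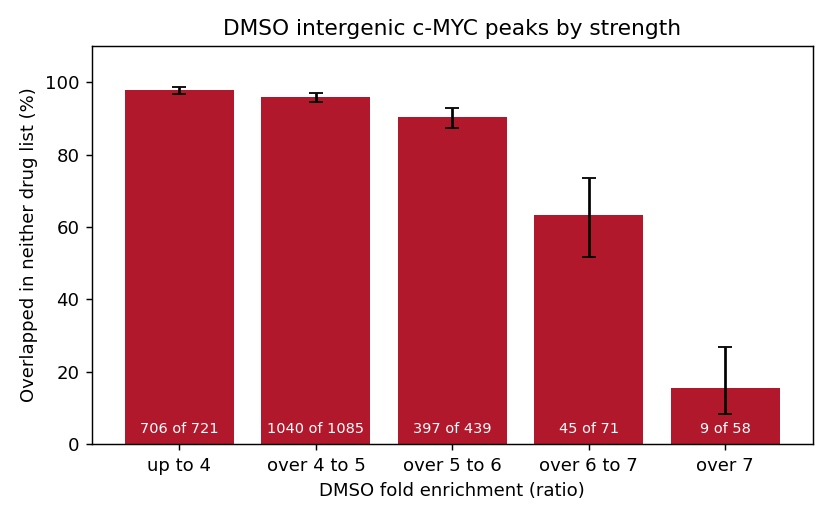
Share of DMSO intergenic c-MYC peaks that overlapped no peak of either drug list (y axis, percent) by DMSO fold enrichment (x axis), with 95% Wilson intervals and counts in the bars. The share fell from 97.9% in the weakest class to 15.5% in the strongest, with 63.4% at a ratio over 6 and up to 7, and without peaks that overlap an IgG peak the strongest class was at 31.0%.

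Most intergenic peaks of every c-MYC list were called in that list alone. When the same rule was turned around, 3713 of 3882 AMG510 intergenic peaks (95.6%) overlapped no DMSO or trametinib peak, and 1466 of 1614 trametinib intergenic peaks (90.8%) overlapped no DMSO or AMG510 peak. Against the 2197 absent peaks, the AMG510-only set was larger by 0.76 on the log2 scale and the trametinib-only set was smaller, at -0.58. Intergenic peaks made up 24.9% of the DMSO list, 37.4% of the AMG510 list, 29.7% of the trametinib list and 49.9% of the IgG list. The absence of a DMSO peak under the drugs therefore had counterparts of similar frequency in both drug lists.

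The absent peaks rested on few tags. The number of tags at the summit, solved from the deposited values, had a median of 11 (quartiles 10 and 13, range 8 to 35), on a median local background of 1.84. Fold enrichment had a median of 4.30 (quartiles 3.89 and 4.84, range 2.94 to 9.0). The kept peaks had medians of 20 tags and a fold enrichment of 5.66, and all DMSO peaks 13 tags and 4.60. At the genome-wide background, 8 tags were needed for a call under DMSO and under trametinib and 7 under AMG510. In 821 absent peaks (37.4%) the count was at most 2 tags above the limit at their own background, against 11 kept peaks (6.21%). The share was 22.3% over all DMSO peaks, 44.4% in the AMG510-only set, 40.2% in the trametinib-only set and 48.9% in IgG intergenic peaks. It was thus not particular to the absent peaks. Absent peaks inside protein-coding genes had medians of 12 tags and a fold enrichment of 4.30. A score above 60, the limit of q-value strength that the study applied for its motif enrichment, was reached by 105 absent peaks (4.78%) and 117 kept peaks (66.1%). The lists give no tag counts at places without a call, and coverage tracks were not used here, so how far the tags fell under each drug at an absent peak was not measured here.

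**Figure D2:**
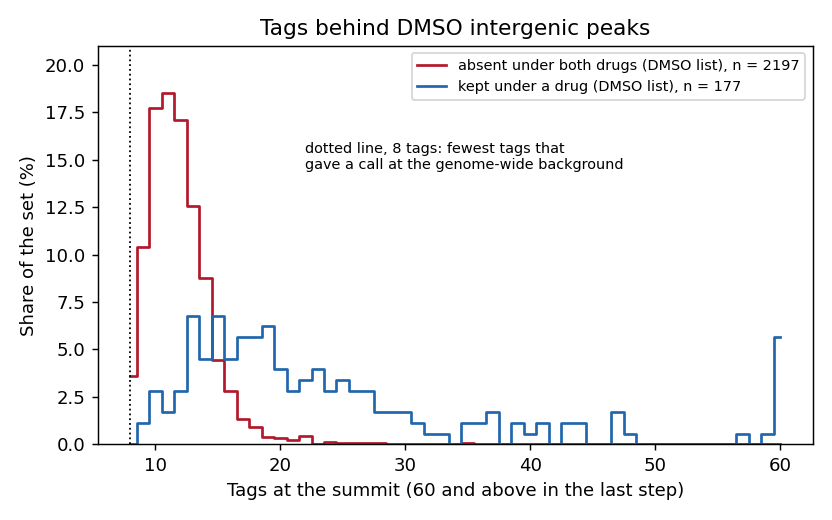
Share of each set (y axis, percent) by the number of tags at the DMSO summit (x axis), for 2197 absent and 177 kept intergenic peaks. The absent peaks crowd near the dotted limit of 8 tags with a median of 11, and the kept peaks spread to 60 and more with a median of 20.

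The 10 absent peaks of largest fold enrichment ranged from 9.0 to 6.99. First was a peak 34770 bp upstream of SLC46A3, a lysosomal transporter gene, at chr13:28753613-28753897, with 26 tags (Poisson interval 17 to 38.1) and a fold enrichment of 9.0. This peak ranked 224 among all 9552 DMSO peaks, and the nearest AMG510 peak was 427314 bp away. Next were peaks 43150 bp downstream of SND1, an RNA-binding coactivator gene (25 tags, 8.18), and 7711 bp upstream of CARS1, the gene of a cysteinyl-tRNA synthetase (20 tags, 8.16). The peak 3052 bp upstream of PLEK, which encodes a protein kinase C substrate of blood cells, had 21 tags and a fold enrichment of 7.99. Then came peaks near the kinase gene DYRK1A (7.91), EFCAB2 (7.84), the neural transcription factor gene ZIC1 (7.71, at 503757 bp), the zinc finger gene ZNF195 (7.38) and the thioredoxin-like gene TXNL1 (7.38). The peak named by TPTE (6.99) lay 2292817 bp from that gene on chromosome 21, 16164 bp from the ribosomal RNA gene RNA5-8SN2 and 1791 bp from a trametinib peak. None of the 10 overlapped an IgG peak, and 4 of them, near SND1, PLEK, EFCAB2 and ZNF195, held an E-box.

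The strongest kept peaks gave fewer tags under each drug that called them, by unlike margins. The kept peak near HHIPL2 had 43 tags under DMSO, 19 under AMG510 and 17 under trametinib. NKAIN1 went the same way with 44, 21 and 14 tags. The peak near FAM90A26 had 33 tags under DMSO, 29 under AMG510 and 31 under trametinib, close in all 3 libraries. Its fold enrichment went the other way, at 10.9, 12.4 and 12.6. The peak near TCF3 had 41 tags under DMSO, no AMG510 peak and 17 tags under trametinib. These 4 were among the 5 kept peaks of largest fold enrichment without an IgG peak. The other, near NBPF15, had 29 tags under DMSO, 21 under AMG510 and 21 under trametinib. Tags were extended to 177 bp under DMSO, 157 bp under AMG510 and 163 bp under trametinib, so the counts are not on the same scale. A choice by DMSO strength also favours fewer tags in the other libraries, so these counts are a description only.

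The E-box was present at few absent peaks. Within 100 bp of the summit CACGTG, which reads the same on both strands, occurred in 90 of 2197 (4.10%, interval 3.34 to 5.01). In the windows of the same length 1 kb to either side it occurred in 92 of 4394 (2.09%), a difference of 2.00 percentage points (1.12 to 2.99). Among kept intergenic peaks the share was 14.7% (26 of 177), a difference of -10.6 points (-16.6 to -6.04). The 117 kept peaks without an IgG peak had 21.4% (25 of 117), and the difference was then -17.3 points (-25.6 to -10.8). Over all DMSO peaks it was 11.3%, and in DMSO peaks near a TSS that were absent under both drugs 12.6% (352 of 2803). Absent peaks inside protein-coding genes were close to the intergenic ones, with 4.82% (94 of 1950) and a difference of -0.724 points (-2.01 to 0.533). The IgG intergenic peaks had 2.30% (34 of 1480), lower than the absent peaks by a margin with an interval of 0.630 to 2.92 points. The AMG510-only set had 2.34% and the trametinib-only set 2.52%, both likewise below 4.10%, with differences of 1.75 points (0.829 to 2.77) and 1.57 points (0.372 to 2.71). E-boxes were therefore more frequent at absent peaks than in neighbouring sequence or at IgG peaks, and less frequent than at kept peaks taken as a whole.

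**Figure D3:**
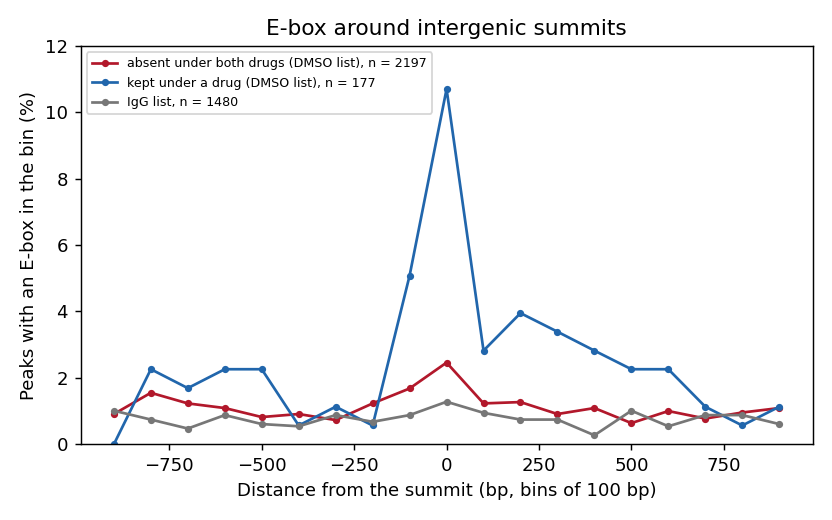
Share of peaks with an E-box (y axis, percent) in bins of 100 bp by distance from the summit (x axis, bp), for absent, kept and IgG intergenic peaks. The central bin held 2.46% of absent, 10.7% of kept and 1.28% of IgG peaks.

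Among the bins of 100 bp around the summit, the central bin held the most absent peaks with an E-box, 54 (2.46%), against 0.637% to 1.68% in the other bins. Of the 90 peaks with an E-box in the window of 100 bp, 26 had it within 20 bp and 48 within 40 bp, distances that the window itself bounds. The 5 strongest were near SND1, PLEK, EFCAB2, ZNF195 and PMEPA1, a gene induced by TGF-β, the last with 19 tags and a fold enrichment of 6.48. The motif in the SND1 window fell on the edge of the 81 bases around the summit, and in the TICAM1 window, near a Toll-like receptor adaptor gene, on the summit itself.

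E-box frequency went with peak strength and base composition inside the absent set. It was 3.12% (22 of 706) at a fold enrichment up to 4, 3.37% (35 of 1040) over 4 and up to 5, 5.79% (23 of 397) over 5 and up to 6, and 18.5% (10 of 54, interval 10.4 to 30.8) above 6. Kept peaks above 6 had 18.7% (14 of 75), a difference of -0.148 points (-13.2 to 14.1). With peaks that overlapped an IgG peak left out, the kept share above 6 was 33.3% (13 of 39) and the difference -14.8 points (-32.5 to 2.88). Between 5 and 6 the kept share was 21.4% (9 of 42) and the difference -15.6 points (-30.3 to -5.53), or 30% (9 of 30) and -24.2 points (-42.2 to -10.6) without IgG overlap. Among peaks with a score above 60 the absent share was 20% (21 of 105) and the kept share 17.9% (21 of 117), a difference of 2.05 points (-8.23 to 12.5). Of these 117 kept peaks 53 overlapped an IgG peak, and without them the kept share was 31.2% (20 of 64) and the difference -11.2 points (-25.0 to 1.98). Kept peaks up to 4 had 0% (0 of 15), below the 3.12% of absent peaks, and those over 4 and up to 5 had 6.67% (3 of 45). No difference was computed for peaks up to 5. Over 5 and up to 6 the interval of the difference left out 0. Above 6, with 54 absent peaks, and at a score above 60, with 105, it spanned 0. No verdict is read from this, and the limit of 6 was chosen after the data had been seen. These intervals cover counting error within single libraries, widen as peaks become fewer, and carry no test.

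By GC content of the window, 0.473% (3 of 634) of absent peaks up to 40% GC held an E-box and 16.2% (35 of 216) of those above 60%. Kept peaks above 60% GC had 26.5% (22 of 83), a difference of -10.3 points (-21.5 to -0.346), or 31.9% (22 of 69) and -15.7 points (-28.2 to -4.45) without IgG overlap. At 40 to 60% GC the shares were 3.86% (52 of 1347) and 4.69% (3 of 64), a difference of -0.827 points (-9.09 to 2.47). Base composition moved with the E-box share, and its part in the difference was not tested further.

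Other letters showed where the E-box stood among motifs. The noncanonical CACGCG, searched on both strands, was found in 2.14% of absent peaks and 0.660% of their windows 1 kb away. The GC box GGGCGG, bound by SP and KLF factors, was in 7.42% against 3.21%, and the ETS core CCGGAA in 2.37% against 1.16%. The AP-1 site TGANTCA, bound by FOS and JUN dimers, was in 6.46% against 6.94%. The TEAD letters GGAATG were in 11% against 10.8%, and the NF-Y box CCAAT in 24.5% against 27.1%. Kept peaks had 12.4% CACGCG, 23.2% GGGCGG and 3.39% TGANTCA, and over all DMSO peaks the shares were 13.5%, 34.7% and 3.87%. The absent peaks thus had more GC-rich motifs than nearby sequence, and AP-1, TEAD and NF-Y letters were at or a little below its level.

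The E-box did not stand out among the 16 palindromes of 6 bases that have CG at the centre. Its share at absent summits was 1.96 times that of the windows 1 kb away, which ranked 9 of 16. CGCGCG came first with a ratio of 8.00 (36 summits and 9 flanking windows), followed by GCCGGC with 3.94. At kept peaks the E-box ranked first with a ratio of 5.78, ahead of CGCGCG with 4.25. At IgG intergenic peaks the E-box also ranked first, tied with ACCGGT and TTCGAA at a lower ratio of 1.33. This set of palindromes was chosen after the E-box shares had been seen, and the comparison is a description.

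Absent summits were richer in GC than their surroundings. The median GC of the window was 45.8%, against 40.8% in the windows 1 kb away. It was 56.2% in kept peaks, 44.8% in the AMG510-only set, 42.5% in the trametinib-only set and 41.8% in IgG intergenic peaks. Windows with GC above 50% and a CpG ratio above 0.6, as in CpG islands, made up 7.28% of absent peaks (160) and 39.0% of kept peaks (69 of 177). Runs of a repeated base or pair of bases of at least 20 bp were in 1.37% of absent and 1.69% of kept windows.

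**Figure D4:**
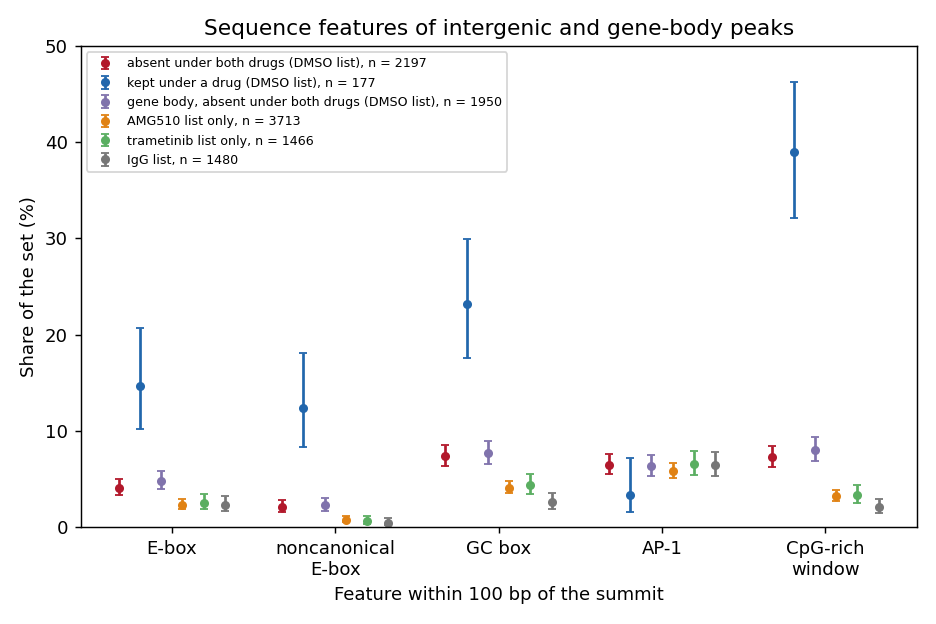
Share of each set (y axis, percent, with 95% Wilson intervals) with a feature within 100 bp of the summit (x axis), for absent and kept DMSO intergenic peaks, absent gene-body peaks, and peaks of the AMG510, trametinib and IgG lists. The absent intergenic peaks lie beside the absent gene-body peaks, a little above the drug-only and IgG sets for 4 features, and below the kept peaks, except for AP-1, where the intervals of all sets overlap.

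Few absent peaks were also called in the IgG library. An IgG peak overlapped 8 of 2197 (0.364%, interval 0.185 to 0.717), against 2.00% of all DMSO peaks and 33.9% (60 of 177) of kept intergenic peaks, a difference of -33.5 points (-40.8 to -27.0). The shares of the AMG510-only and trametinib-only sets were near that of the absent peaks, at 0.350% and 0.341%. A place called in every library is kept by the rule, so the contrast with kept peaks goes with the choice and is a description. Of the 68 DMSO intergenic peaks that overlapped an IgG peak, 8 were absent under both drugs (11.8%), and of the 2306 that did not, 2189 were (94.9%). DMSO intergenic peaks at places also called in the IgG library were therefore mostly kept, although most IgG intergenic peaks (1390 of 1480) overlapped no c-MYC peak of any treatment. Of the 75 kept peaks with a fold enrichment above 6, 39 had no IgG peak.

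The 5 strongest of the 8 lay near OR11H1, an olfactory receptor gene on chromosome 22 (fold enrichment 5.33), CROCC, a ciliary rootlet gene (4.65, 21 tags), AMER3 (4.46), WDR97 (4.40) and SLC12A7, a potassium-chloride cotransporter gene (4.34). None of these held an E-box. The one E-box among all 8 was near GOLGA6L6 on chromosome 15, with 22 tags on a background of 4.71, where a trametinib peak lay 396 bp away.

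Most absent peaks were far from protein-coding genes and from drug peaks. The median distance was 70574 bp to the nearest protein-coding gene and 30101 bp to the nearest TSS, and 15.8% lay within 10 kb and 56.9% within 100 kb of a protein-coding gene. The rule itself keeps peaks away from TSS, genes and drug peaks. The median distance to a protein-coding gene was 67466 bp over all DMSO intergenic peaks and 73486 bp in the trametinib-only set. It was 88781 bp in the AMG510-only set and 89863 bp in IgG intergenic peaks. The absent peaks lay upstream of the nearest gene in 1149 cases (52.3%) and downstream in 1048. The nearest drug peak was within 1 kb for 55 (2.50%) and at a median of 54222 bp. Near misses of overlap were thus few. For AMG510 peaks alone the median distance was 77339 bp and for trametinib peaks, whose list is shorter, 156678 bp. Just inside the 1 kb limit lay peaks near DEFB128 (1007 bp from its TSS), DHPS (1019 bp) and SPOCK1 (1051 bp from a lncRNA start), with fold enrichments of 3.46, 4.20 and 4.30. Just outside, and so not in the set, lay peaks near ADAM8 (991 bp), ANXA2R (989 bp) and MZT2A (984 bp), with 3.18, 3.62 and 3.15.

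Annotated noncoding genes covered part of the set, and their transcription was not measured here. The summits of 561 absent peaks (25.5%) lay in the bodies of lncRNA genes, 505 genes in all, against 20.9% of kept peaks (difference 4.63 points, -2.18 to 10.3). The share was 27.8% in IgG intergenic peaks, 27.3% in the AMG510-only set, 24.8% in the trametinib-only set and 16.7% over all DMSO peaks. It was thus not particular to the absent peaks. LINC01036 on chromosome 1, which spans 617 kb, held the most, with 5 peaks. Pseudogenes held 58 absent peaks (2.64%) and 11.9% of kept peaks, a difference of -9.22 points (-14.8 to -5.18). They held 4.12% of IgG intergenic peaks, 3.07% of the AMG510-only set and 1.91% of the trametinib-only set. Reads in pseudogenes and other copied sequence can belong to another copy, although the authors kept only alignments of high mapping quality.

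Small RNA genes started within 1 kb of 15 absent summits (0.683%), against 8 kept summits (4.52%). The share was 1.62% over all DMSO peaks, 0.431% in the AMG510-only set and 0.750% in the trametinib-only set. In absent peaks inside protein-coding genes it was 0.462%. Such starts were thus no more frequent at absent peaks than over all DMSO peaks. The strongest of the 15 was at chr5:136080536-136080868, 95 bp from the start of a vault RNA gene and 16874 bp downstream of TGFBI, with 21 tags and a fold enrichment of 6.26. Vault RNAs are short transcripts of RNA polymerase III. A peak 61 bp from the start of RN7SL3, a gene of the signal recognition particle RNA that is also made by polymerase III, had 18 tags and 5.22, 1154 bp upstream of the protein-coding gene NEMF. Near microRNA genes, peaks lay 21 bp from MIR130A (12 tags, 5.05), 163 bp from MIR3977 (14 tags, 4.70), 169 bp from MIR132 (22 tags, 4.97), 372 bp from MIR30C2 (13 tags, 4.93) and 631 bp from MIR633 (15 tags, 5.40). The peak at MIR132, 4315 bp upstream of the repressor gene HIC1, held an E-box and had an AMG510 peak 435 bp away without overlap. The last of the 8 strongest lay 958 bp from RN7SKP148, a 7SK pseudogene (16 tags, 4.81). These peaks were outside the TSS rule because it counted protein-coding and lncRNA transcripts, and in 7 of the 15 the summit was within 500 bp of the small RNA start.

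The widest absent peaks were near FANCC, a DNA repair gene of the Fanconi anaemia pathway (689 bp, 27 tags, 6.69), HEBP1 (550 bp) and FAM50B (521 bp). The FANCC summit lay 214 bp upstream of the annotated start of the gene, but 19348 bp from the nearest TSS that the rule counted. Widths had a median of 201 bp, and 596 peaks (27.1%) had the shortest width possible, 177 bp, the extension length of the library.

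Lists of related genes were read by nearest protein-coding gene. Over all 19970 protein-coding genes, 1588 (7.95%) were nearest to at least 1 absent peak, and 1240 of them to exactly 1. None of the 13 lipid synthesis genes listed was nearest to an absent peak. Of 10 canonical MYC targets 3 were, with 5 peaks. These were ODC1, the first enzyme of polyamine synthesis (10639 bp upstream, 14 tags, fold enrichment 4.62), TERT, the telomerase catalytic subunit (2956 bp downstream, 11 tags, 3.21), and PTMA, prothymosin alpha, with 3 peaks 19364 to 44856 bp upstream (18, 12 and 14 tags, fold enrichments 5.66, 3.47 and 3.79). Of 16 ERK output genes 3 were, with 4 peaks, near PHLDA1 (198608 bp downstream, 19 tags, 6.16, with an E-box), FOS (32824 bp downstream, 14 tags, 5.25) and JUN (2 peaks 213531 and 229656 bp upstream, 3.91 and 5.21). Of 13 genes of the MYC dimer network 1 was, MYC itself, with 3 peaks of 14 tags each, 213523, 444842 and 601101 bp downstream (4.23, 4.59 and 5.83). The lists are short and the nearest gene is only a label, so these counts carry no test.

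Some absent peaks lay close to others. With summits at most 50 kb apart, 380 (17.3%) stood in 178 groups, 20 of them with 3 or more peaks. The number that peak density alone would give was not computed, so these groups are a description only. The largest had 6 peaks over 72571 bp between TEX44 and PTMA on chromosome 2, from chr2:231614732-231615009 to chr2:231687426-231687610. Their fold enrichments from the TEX44 side were 3.99, 4.05, 4.38, 3.79, 3.47 and 5.66, on 16, 11, 12, 14, 12 and 18 tags, and the last, 19364 bp from PTMA, held the only E-box. No IgG peak fell in the span, but 1 AMG510 peak (12 tags) and 2 trametinib peaks (13 and 10 tags) did, and a drug peak lay 40 bp from the first of the 6, which also had a kept DMSO peak of 23 tags beside it. The AMG510 peak overlapped the trametinib peak of 10 tags, so the span held 2 places with a drug peak, neither at one of the 6 summits. The second group had 4 peaks over 66952 bp, nearest to OR11H1 on chromosome 22, and the third 3 peaks over 34401 bp near SLC45A1 on chromosome 1, with 1 IgG peak in the span.

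The absent peaks were unevenly spread over chromosomes. Chromosome 5 held 316, or 2.87 per Mb outside protein-coding genes, the highest density of the 23 chromosomes, followed by 20 with 2.25, 19 with 2.15 and 1 with 2.15. Chromosome 4 held 16, or 0.137 per Mb, the lowest, below 15 (0.340), X (0.362) and 11 (0.406). Some genes were nearest to many absent peaks. CDH9, a cadherin gene on chromosome 5, was nearest to 15 peaks between 77571 and 1218831 bp away, TPTE to 14, DEFB115 to 13 and PLA2G4A to 10, the closest of its 10 at 15007 bp. None of these peaks held an E-box.

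The other lists shared this pattern. Over the 23 chromosomes the density of absent peaks correlated with that of IgG intergenic peaks (Pearson's r 0.87, Spearman's rho 0.88), of AMG510-only peaks (0.95 and 0.94) and of trametinib-only peaks (0.97 and 0.95). It also went with the median local background of the absent peaks (0.70 and 0.65), which was 2.04 on chromosome 5 and 1.57, the genome-wide value, on chromosome 4. Chromosomes share the library, its depth and the copy number of the cell line, so these are descriptions without a test. Copy number was not measured here, and its part in the spread was not tested.

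**Figure D5:**
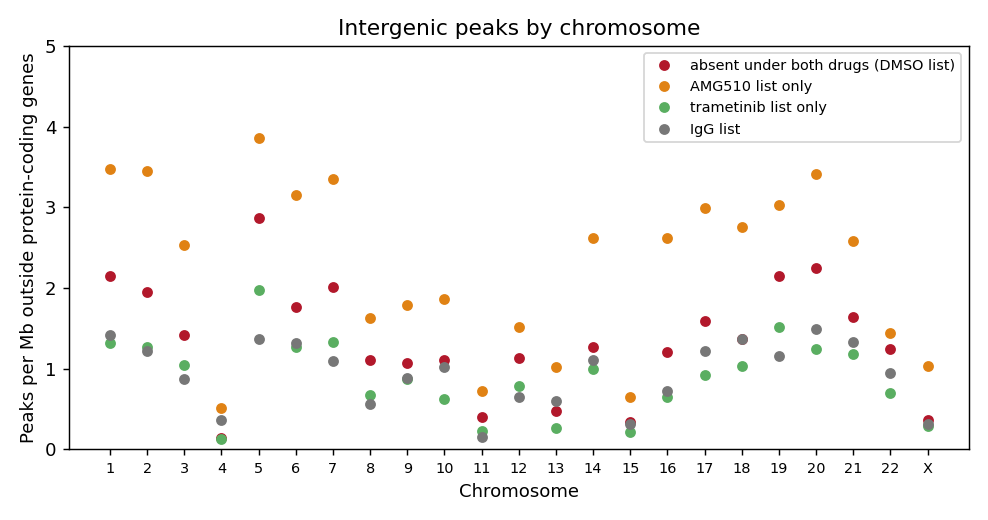
Peaks per Mb outside protein-coding genes (y axis) by chromosome (x axis) for absent intergenic peaks and for the AMG510-only, trametinib-only and IgG intergenic sets. All 4 sets are low on chromosomes 4, 11, 15 and X, and the absent peaks are highest on chromosome 5 with 2.87.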

How the data were processed

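Per the authors' methods, read pairs were trimmed (Trimmomatic 0.39), mapped to GRCh38 (bwa 0.7.17), restricted to high mapping quality (SAMtools 1.9), cleared of duplicates (Picard) and converted to intervals (bedtools 2.27.1). Peaks were then called for each library with MACS2 2.2.7.1, and those in the ENCODE exclusion list were dropped. Either mate of a pair may enter as a tag, so tag counts can overstate independent fragments and intervals are too narrow. The deposited score is 10 times the −log10 q-value. The deposited fold enrichment is a ratio of tags to background at the summit after the same count is added to both. It is therefore lower than the plain quotient of tags and background. The authors also gave the −log10 p-value. Tags and background were solved from the deposited ratio and −log10 p-value, and gave whole tags in 100% of peaks (tolerance 0.001). The number of tags in calling was estimated from the genome-wide background, the shortest peak width and a genome size of 2700000000 bp. Solving, overlap and motif search were tested on simulated data.

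Coordinates are 1-based on GRCh38, and every contig name in the lists was in the reference. TSS and genes came from GENCODE version 44, and motifs were counted within 100 bp of the summit on both strands. Groups came from sample titles, with 1 library each. Python 3.11.15, numpy 2.4.6, pandas 2.3.3, scipy 1.17.1, statsmodels 0.14.6 and pysam 0.24.0 were used. The members, lists and named peaks were chosen with earlier results of these data known. Named peaks were the 10 strongest, the 5 strongest with an E-box and 5 with an IgG peak, the 8 strongest at small RNA starts, the 3 largest groups, 3 on each side of the 1 kb limit, the widest 3 and those nearest to a listed gene. The peaks with more than a single E-box, TICAM1, GOLGA6L6, the genes nearest to the most peaks and the kept peaks were named after their values were seen. Alternatives changed the strength and score limits, the overlap, the TSS rule, the E-box window and the IgG overlap.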

Additional observations from a re-analysis of the deposited data

Results flagged for a closer look

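The rule left out 183 DMSO c-MYC peaks that lay on chromosome Y, the mitochondrial genome or unplaced and unlocalized contigs, a signal outside the set described. The IgG list had 161 such peaks, the AMG510 list 218 and the trametinib list 170.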

How the results depend on the processing

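Each of the 5 results (the number of absent peaks, their share of DMSO intergenic peaks, their E-box share, its difference from kept peaks and their IgG overlap) was recomputed under the alternatives, giving 54 values. Of these, 32 stayed within a factor of 1.5 (numbers of peaks) or within the interval of the reported value, 21 moved and 1 changed sign. With fold enrichment above 5 there were 451 absent peaks, 79.4% of DMSO intergenic peaks, with 7.32% E-box. With a score above 60 there were 105, 47.3% of DMSO intergenic peaks, with 20% E-box, a difference from kept peaks of 2.05 points (the opposite sign) and 0 IgG overlaps, against 45.3% IgG overlap among the kept peaks. Counting a drug peak within 1 kb as overlap gave a share of 90.2%. Leaving out peaks with IgG overlap gave a share of 94.9% and an E-box difference of -17.3 points. The E-box share was 2.37% within 50 bp, 7.37% within 250 bp and 5.87% with CACGCG counted, the last with a difference of -18.4 points. IgG overlap within 1 kb was 0.865%. Chosen after seeing the data, fold enrichment above 6 gave an E-box share of 18.5% and a difference of -0.148 points, GC above 60% a share of 16.2%, fold enrichment above 5 without IgG overlap 7.33% and -24.6 points, and a score above 60 without IgG overlap 20% and -11.2 points. The cause of these moves was not tested.

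No paired analysis was possible because every condition was a single library, and for the same reason no library was left out. A peak list holds no value where nothing was called, and 37.4% of absent peaks were within 2 tags of their limit, so absence under a drug and a small fall in tags cannot be told apart from the lists alone. Coverage tracks were not used here. Treatment and library cannot be told apart either.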
